A study of Arabidopsis thaliana with 38 samples.

Results

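The SAUR (SMALL AUXIN UP RNA) genes are a plant family of short genes whose transcripts accumulate quickly after auxin treatment. The 38 family members described here were chosen by their locus identifiers, from SAUR1 (AT4G34770) to SAUR78 (AT1G72430), and all 38 were found among the 27416 genes of the deposited count tables. Gene names follow RefSeq, which gives the name SAUR68 to both AT1G29510, called SAUR68 here, and AT1G29490, which is called by its locus. RefSeq likewise gives the name SAUR21 to the member AT5G18030 and to AT5G01830, which is not a member.

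RNA-seq libraries of Arabidopsis thaliana represented 4 genotypes, with 2 libraries for each. H3.1S28A carries an exchange of serine 28 for alanine in histone H3.1, the form deposited during DNA replication, and was compared with H3.1, which carries the unmutated form. H3.3S28A carries the same exchange in H3.3, the form deposited outside replication, and was compared with H3.3. The labels name the source as seedlings of 2 weeks in all 4 genotypes, while their extraction text names closed buds. How the 4 lines were made, and which H3 genes they still carry, is not given in the sources used here, and neither is whether the libraries of a genotype came from separate plants or lines. The p-values therefore measure the spread between these libraries, which may be technical.

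In the textbook account, auxin is bound by TIR1/AFB receptors, which mark Aux/IAA repressors for breakdown and so release ARF transcription factors onto target genes such as the SAUR genes. SAUR proteins bind and inhibit PP2C.D phosphatases, which otherwise dephosphorylate the H+-ATPases of the plasma membrane. Active H+-ATPases acidify the cell wall and allow cells to expand, and brassinosteroids, temperature and light act on many SAUR genes through PIF and BZR factors. Most SAUR genes lack introns and many lie in tandem arrays of similar copies.

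Total counts ran from 12865999 to 24449528 per library, so the limit set by 0 counts lay between 0.123 and 0.233 CPM (counts scaled to a common library total; from 3 counts, counting error only). H3.3S28A replicate 2 stood apart in its share of organelle counts, 0.884% against at most 0.153% in the other 7 libraries, and in the nuclear locus AT2G01021, which held 0.753% of its counts against at most 0.0635% elsewhere. Leaving these genes out changed no call of a SAUR gene. The count columns of H3.1S28A carry the word new in their names and those of H3.1 do not, which no label explains. Whatever the word marks cannot be told apart from the genotype. The 9 leaf photosynthesis markers summed to 72047 to 72338 CPM in H3.1S28A and 70863 to 72231 CPM in H3.1, and to 64960 to 70177 CPM in H3.3S28A and 76726 to 78533 CPM in H3.3. The 7 floral organ identity genes differed far more. They summed to 66.1 and 10.6 CPM in H3.1S28A replicates 1 and 2 against 2.69 to 2.81 CPM in H3.1, and to 177 to 186 CPM in H3.3S28A against 0.662 to 0.846 CPM in H3.3, where AP3 had no count. The 6 anther and pollen markers summed to at most 1.58 CPM and the 5 root markers to at most 4.56 CPM in every library, and the anther gene MS1 and the root hair genes EXPA7 and RHD6 had no count in any library. In whole tissue, more cells of a type and more RNA per cell cannot be told apart.

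The level of the 38 genes spanned from 0 counts to 113 CPM, here scaled by TMM within each table of 4 libraries. SAUR16 (AT4G38860) and SAUR14 (AT4G38840), neighbours on one array, and SAUR6 (AT2G21210) together held 41.4% of the summed member CPM in H3.1S28A and 42.2% in H3.1, and 51.2% in H3.3S28A and 40.7% in H3.3. SAUR16 is known to take part, with SAUR50, in the opening of cotyledons in the light. Per kilobase of gene span, SAUR16 and SAUR14 had the highest levels of all members in each genotype. SAUR14 stood at 66.8 CPM per kb in H3.1S28A and 46.3 in H3.1, and at 134 CPM per kb in H3.3S28A and 54.7 in H3.3. The median member stood at 5.72 CPM per kb in H3.1S28A and 3.61 in H3.1, and at 6.31 in H3.3S28A and 2.81 in H3.3. At the low end, the number of members averaging under 1 CPM was 10 in H3.1S28A and 13 in H3.1, and 5 in H3.3S28A and 12 in H3.3. The 38 genes together summed to 379 and 360 CPM in H3.1S28A against 239 and 236 CPM in H3.1, a ratio of means of 1.56, and to 471 and 527 CPM in H3.3S28A against 237 and 220 CPM in H3.3, a ratio of 2.18. In both comparisons the sums of the S28A libraries lay above those of the unmutated libraries, as the plot of every member by library shows gene by gene.

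**Figure D1:**
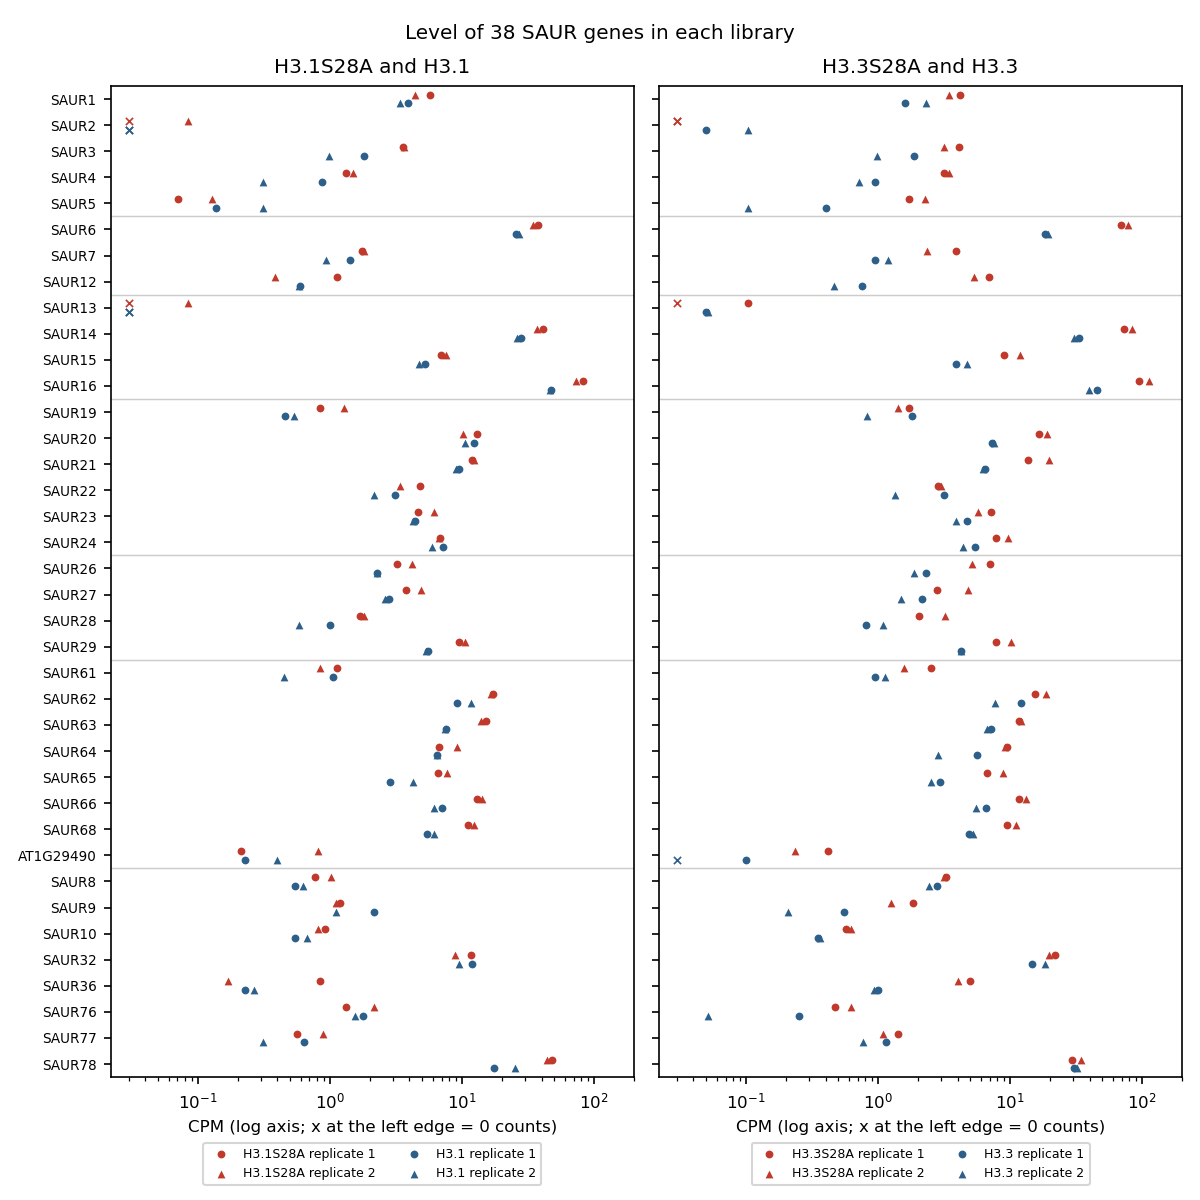
Level of each of the 38 SAUR genes in each library, in CPM on a log axis, with H3.1S28A and H3.1 on the left and H3.3S28A and H3.3 on the right; red marks are S28A libraries, blue marks unmutated ones, and circles and triangles are replicates 1 and 2. Grey lines separate the 6 tandem arrays and the single loci, and a cross at the left edge is a count of 0; SAUR16 reached 113 CPM in H3.3S28A.

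In H3.1S28A against H3.1, called SAUR genes were all higher. Of the 38 members, 33 passed the filter on low counts, 11 of them rose (edgeR quasi-likelihood test, Benjamini-Hochberg adjusted p under 0.05) and 22 did not pass the test. Over all 18974 tested genes, 8.23% were called higher and 5.26% lower. The called share of the tested SAUR genes was 33.3%. Their median log2 fold change was 0.62, with a range of -0.50 to 1.37, against -0.01 over all tested genes, and 31 of the 33 had a positive value. At an unadjusted p under 0.05, 19 members were higher and 0 lower, and DESeq2 also called 11 higher and 0 lower. Both H3.1S28A libraries lay above both H3.1 libraries in 25 tested members, and this order held in 28.7% of all tested genes. The floral organ identity genes moved in the same direction, and their part in the SAUR result was not tested. In H3.1S28A replicates 1 and 2, the SAUR sum was 379 and 360 CPM and the floral sum 66.1 and 10.6 CPM.

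The array of SAUR61 to SAUR68, which includes SAUR63, known to promote elongation of hypocotyls and stamen filaments, held 5 of the 11 called genes, from 7 tested. SAUR66 (AT1G29500) had 13.1 and 14.3 CPM in H3.1S28A against 7.08 and 6.10 CPM in H3.1 (log2 fold change 1.06, SE 0.16, adjusted p = 0.00113). SAUR68 had 11.1 and 12.4 CPM in H3.1S28A against 5.39 and 6.15 CPM in H3.1 (1.04, SE 0.17, adjusted p = 0.00174). SAUR63 (AT1G29440) had 15.2 and 13.9 CPM in H3.1S28A against 7.58 and 7.40 CPM in H3.1 (0.96, SE 0.15, adjusted p = 0.0015). In these 3 genes the S28A libraries were about 2-fold above the unmutated ones, without overlap, and the call held with any library left out. SAUR65 (AT1G29460) had 6.53 and 7.64 CPM in H3.1S28A against 2.83 and 4.28 CPM in H3.1 (1.01, SE 0.23, adjusted p = 0.0126). SAUR62 (AT1G29430), with the highest CPM of the array in both genotypes, had 17.1 and 16.6 CPM in H3.1S28A against 9.22 and 11.7 CPM in H3.1 (0.69, SE 0.15, adjusted p = 0.0102). Both genes were higher in both mutant libraries, but each lost its call without H3.1 replicate 1, at adjusted p = 0.104 for SAUR65 and 0.113 for SAUR62. SAUR64 and SAUR61 were not called, at log2 fold changes of 0.33 and 0.38.

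SAUR78 (AT1G72430), a single locus whose protein is known to interact with ethylene receptors, had the smallest adjusted p of all members in this comparison. It had 48.3 and 43.9 CPM in H3.1S28A against 17.6 and 24.99 CPM in H3.1 (1.12, SE 0.15, adjusted p = 0.000413). The mutant libraries were well above the unmutated ones although the H3.1 libraries differed from each other. SAUR16 had 82.5 and 73.2 CPM in H3.1S28A against 47.1 and 46.7 CPM in H3.1 (0.74, SE 0.11, adjusted p = 0.000881). Its neighbour SAUR14 had 41.1 and 36.7 CPM in H3.1S28A against 27.9 and 26.0 CPM in H3.1 (0.53, SE 0.11, adjusted p = 0.00729). Both lay above in both libraries, and SAUR14 lost its call without H3.1 replicate 2, at adjusted p = 0.0823. SAUR29 (AT3G03820), of the array with the temperature-responsive genes SAUR26 to SAUR28, had 9.48 and 10.6 CPM in H3.1S28A against 5.57 and 5.30 CPM in H3.1 (0.89, SE 0.17, adjusted p = 0.00487). SAUR6 had 37.9 and 34.6 CPM in H3.1S28A against 25.8 and 26.998 CPM in H3.1 (0.46, SE 0.11, adjusted p = 0.0143). SAUR6 showed the smallest called change, and it lost the call without either H3.1 library, at adjusted p = 0.102 and 0.0712. SAUR3 (AT4G34790) showed the largest change, with 3.58 and 3.65 CPM in H3.1S28A against 1.83 and 0.980 CPM in H3.1 (1.37, SE 0.33, adjusted p = 0.0156). Its call rested on H3.1 replicate 2, the lower of the unmutated libraries, without which adjusted p was 0.140.

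The array of SAUR19 to SAUR24, whose proteins promote cell expansion by inhibiting PP2C.D phosphatases, had 0 of 6 tested genes called in H3.1S28A against H3.1, with 3 higher at an unadjusted p under 0.05 and 0 called by DESeq2. SAUR20 (AT5G18020), the gene with its highest CPM in H3.1, had 13.1 and 10.2 CPM in H3.1S28A against 12.4 and 10.6 CPM in H3.1 (0.01, SE 0.17, adjusted p = 0.973). Its values in the groups overlapped fully. SAUR24 also overlapped, at a log2 fold change of 0.06, while SAUR21 had 11.9 and 12.3 CPM in H3.1S28A against 9.54 and 8.95 CPM in H3.1 without passing the test (adjusted p = 0.0993). SAUR1 (AT4G34770), with the highest CPM of the array of SAUR1 to SAUR5, had 5.76 and 4.37 CPM in H3.1S28A against 3.93 and 3.39 CPM in H3.1 and was not called (0.46, SE 0.24, adjusted p = 0.22). Several low genes had values near 1 that did not pass the test, SAUR4 at 1.27 (adjusted p = 0.111), SAUR28 at 1.16 (0.0845) and SAUR19 at 1.12 (0.146). SAUR26 and SAUR27, beside SAUR28, were at 0.72 and 0.71 (0.0952 and 0.0795), and SAUR15 at 0.55 (0.0721). With 1 library left out, SAUR26 and SAUR27 passed the threshold without H3.1S28A replicate 1 (0.0494 and 0.0319) and SAUR22 without H3.1S28A replicate 2 (0.0386). SAUR9 and SAUR32, a gene of the apical hook, were the members with a negative value, at -0.50 and -0.06, and neither was called. The 5 members that did not pass the filter were SAUR2 and SAUR13, each with 2 counts in H3.1S28A and 0 in H3.1, SAUR5 with 4 counts against 10, SAUR36 with 16 against 11 and AT1G29490 with 22 against 14. SAUR4, SAUR61 and SAUR77 passed it through the H3.1S28A libraries, and none of them was called. In the other 30, both H3.1 libraries reached the minimum, and these hold all 11 called genes.

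In H3.3S28A against H3.3, called SAUR genes were again all higher, in all 6 arrays and among the single loci. Of the 38 members, 34 passed the filter, 27 rose and 7 did not pass the test. Over all 19729 tested genes, 28.8% were called higher and 29.7% lower, and the share of called genes was 79.4% among the tested members. All 34 had a positive log2 fold change, with a median of 1.12 and a range of 0.04 to 3.34, against a median of 0.01 over all tested genes, and 21 were at least 2-fold higher. DESeq2 called 23 higher and 0 lower, and 0 members were lower at an unadjusted p under 0.05. Both H3.3S28A libraries lay above both H3.3 libraries in 30 tested members, an order held by 38.9% of all tested genes. The floral organ identity genes were higher in the same libraries, from 177 to 186 CPM against 0.662 to 0.846 CPM in sum, and their part in the SAUR result was not tested. SAUR5, SAUR9, SAUR10 and SAUR12 passed the filter through the H3.3S28A libraries, and 3 of these were called. Of the 30 members with both H3.3 libraries at the minimum, 24 were called higher.

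SAUR6, SAUR7 and SAUR12 lie side by side, and all 3 rose in H3.3S28A. SAUR12 (AT2G21220) had the largest change of all members, with 6.93 and 5.34 CPM in H3.3S28A against 0.753 and 0.464 CPM in H3.3 (3.34, SE 0.36, adjusted p = 1.58e-05). It passed the filter only through the H3.3S28A libraries. SAUR6 had 69.3 and 78.1 CPM in H3.3S28A against 18.5 and 19.5 CPM in H3.3 (1.98, SE 0.10, adjusted p = 1.46e-07). SAUR7 (AT2G21200) had 3.91 and 2.35 CPM in H3.3S28A against 0.954 and 1.19 CPM in H3.3 (1.58, SE 0.39, adjusted p = 0.00511). The mutant libraries stood apart from the unmutated ones in each, with the narrowest gap in SAUR7, which lost its call without H3.3S28A replicate 1 (adjusted p = 0.0928). The summed level of the 3 genes was 80.1 and 85.8 CPM in H3.3S28A against 20.2 and 21.1 CPM in H3.3, a ratio of 4.02 and the highest of the 6 arrays.

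On the array of SAUR1 to SAUR5, 4 of 4 tested genes rose. SAUR5 (AT4G34810) had 1.72 and 2.28 CPM in H3.3S28A against 0.402 and 0.103 CPM in H3.3 (2.95, SE 0.62, adjusted p = 0.00179), which rests on 8 and 2 counts in H3.3 and was at 4.16 without H3.3 replicate 1 and 2.28 without H3.3 replicate 2. SAUR4 (AT4G34800) had 3.18 and 3.45 CPM in H3.3S28A against 0.954 and 0.722 CPM in H3.3 (1.99, SE 0.38, adjusted p = 0.000929). SAUR3 had 4.12 and 3.14 CPM in H3.3S28A against 1.86 and 0.981 CPM in H3.3 (1.38, SE 0.38, adjusted p = 0.00898). These are low genes, with no overlap between the groups. SAUR1 had 4.17 and 3.45 CPM in H3.3S28A against 1.61 and 2.32 CPM in H3.3 (0.98, SE 0.32, adjusted p = 0.0217). SAUR3 lost its call without H3.3 replicate 2 (adjusted p = 0.0848), and SAUR1 without H3.3S28A replicate 1 or H3.3 replicate 1 (0.0971 and 0.162) and under DESeq2 (0.0796).

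The array of SAUR13 to SAUR16, which held the largest share of member CPM in every genotype, had 3 of 3 tested genes higher in H3.3S28A. SAUR16 had 95.1 and 113 CPM in H3.3S28A against 45.1 and 39.7 CPM in H3.3 (1.31, SE 0.10, adjusted p = 1.73e-06). SAUR14 had 72.9 and 83.1 CPM in H3.3S28A against 33.2 and 30.4 CPM in H3.3 (1.31, SE 0.10, adjusted p = 1.45e-06). SAUR15, the family member long used as an auxin response reporter under the name SAUR-AC1, had 8.92 and 11.9 CPM in H3.3S28A against 3.92 and 4.70 CPM in H3.3 (1.28, SE 0.22, adjusted p = 0.00047). The 3 neighbours changed by nearly the same factor, without overlap between the groups. All 3 kept their calls with any library left out.

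The cell expansion array of SAUR19 to SAUR24 had 4 of 6 tested genes higher in H3.3S28A, beside 54.5% of other genes of like span (set out below). SAUR21 (AT5G18030) had 13.6 and 19.7 CPM in H3.3S28A against 6.43 and 6.19 CPM in H3.3 (1.41, SE 0.19, adjusted p = 0.000104). SAUR20 had 16.5 and 18.9 CPM in H3.3S28A against 7.28 and 7.59 CPM in H3.3 (1.27, SE 0.15, adjusted p = 3.31e-05). SAUR24 (AT5G18080) had 7.87 and 9.65 CPM in H3.3S28A against 5.42 and 4.39 CPM in H3.3 (0.85, SE 0.21, adjusted p = 0.00573). The first pair changed with a wide gap between the groups, and SAUR24 by less. SAUR24 lost its call without H3.3 replicate 2 (adjusted p = 0.0659), and SAUR23, at 0.60, lost it under DESeq2 (0.153) and without H3.3S28A replicate 1, H3.3 replicate 1 or H3.3 replicate 2 (0.224, 0.0835 and 0.233). SAUR19 and SAUR22 overlapped between the groups and were not called, at 0.28 and 0.39. The genes of this array are near-identical copies, and how reads that fit several copies were counted is not given in the sources used here, so the split between them is uncertain. Their sum, which is less exposed to that split, was 49.7 and 58.4 CPM in H3.3S28A against 28.8 and 24.3 CPM in H3.3, and 42.1 and 40.1 CPM in H3.1S28A against 37.0 and 32.4 CPM in H3.1.

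SAUR26 to SAUR29 all rose in H3.3S28A. SAUR26 (AT3G03850) had 7.09 and 5.10 CPM in H3.3S28A against 2.31 and 1.86 CPM in H3.3 (1.57, SE 0.28, adjusted p = 0.000636). SAUR28 (AT3G03830) had 2.03 and 3.22 CPM in H3.3S28A against 0.804 and 1.08 CPM in H3.3 (1.47, SE 0.43, adjusted p = 0.0123). SAUR29, with the highest CPM of them, had 7.77 and 10.1 CPM in H3.3S28A against 4.27 and 4.23 CPM in H3.3 (1.08, SE 0.22, adjusted p = 0.00135). No mutant library reached down to an unmutated one in these genes. SAUR28 lost its call without H3.3S28A replicate 2 or H3.3 replicate 1 (adjusted p = 0.109 and 0.0876). SAUR27, at 1.05, lost it under DESeq2 (0.0707) and without H3.3S28A replicate 2, H3.3 replicate 1 or H3.3 replicate 2 (0.230, 0.0553 and 0.187), and was at 0.63 without the first of these.

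From the array of SAUR61 to SAUR68, 6 of 7 tested genes rose in H3.3S28A. SAUR65 had 6.67 and 8.87 CPM in H3.3S28A against 2.96 and 2.53 CPM in H3.3 (1.51, SE 0.25, adjusted p = 0.000365). SAUR62 had 15.5 and 18.7 CPM in H3.3S28A against 12.2 and 7.69 CPM in H3.3 (0.80, SE 0.20, adjusted p = 0.00568), and without H3.3 replicate 2 was at 0.49 and not called (0.0742). The other called genes, SAUR63, SAUR64, SAUR66 and SAUR68, had log2 fold changes of 0.78, 1.15, 1.05 and 1.04. The ratio of summed CPM of this array was 1.77 in H3.1S28A over H3.1 and 1.97 in H3.3S28A over H3.3. SAUR61, at 1.00, was not called (adjusted p = 0.0678) and passed the threshold without H3.3S28A replicate 2 (0.0412).

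Among the 8 single loci, 3 of 7 tested rose in H3.3S28A, beside 54.5% of other genes of like span. SAUR36 (AT2G45210), which promotes leaf senescence, had 5.01 and 4.00 CPM in H3.3S28A against 1.00 and 0.929 CPM in H3.3 (2.24, SE 0.33, adjusted p = 0.000177). SAUR9 (AT4G36110) had 1.82 and 1.26 CPM in H3.3S28A against 0.552 and 0.206 CPM in H3.3 (2.03, SE 0.59, adjusted p = 0.0118). It ran from 1.48 to 2.85 with a library left out, and lost its call without H3.3S28A replicate 1 or H3.3 replicate 2 (0.0961 and 0.0972). SAUR32, at 0.36, lost it under DESeq2 (0.143), in the fit of all 8 libraries (0.111), and without H3.3S28A replicate 1 or H3.3 replicate 1 (0.128 and 0.415), where it was at 0.28 and 0.16. SAUR36 stood well apart between the groups, while SAUR32 lay close to the threshold. SAUR78 had 29.5 and 34.3 CPM in H3.3S28A against 30.6 and 32.2 CPM in H3.3 (0.04, SE 0.11, adjusted p = 0.795), with overlapping libraries. SAUR8, SAUR10 and SAUR77 were not called, at 0.31, 0.75 and 0.41. Outside the test lay SAUR2 with 0 counts in H3.3S28A and 3 in H3.3, SAUR13 with 2 and 2, AT1G29490 with 11 and 2, and SAUR76 with 17 and 6.

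**Figure D2:**
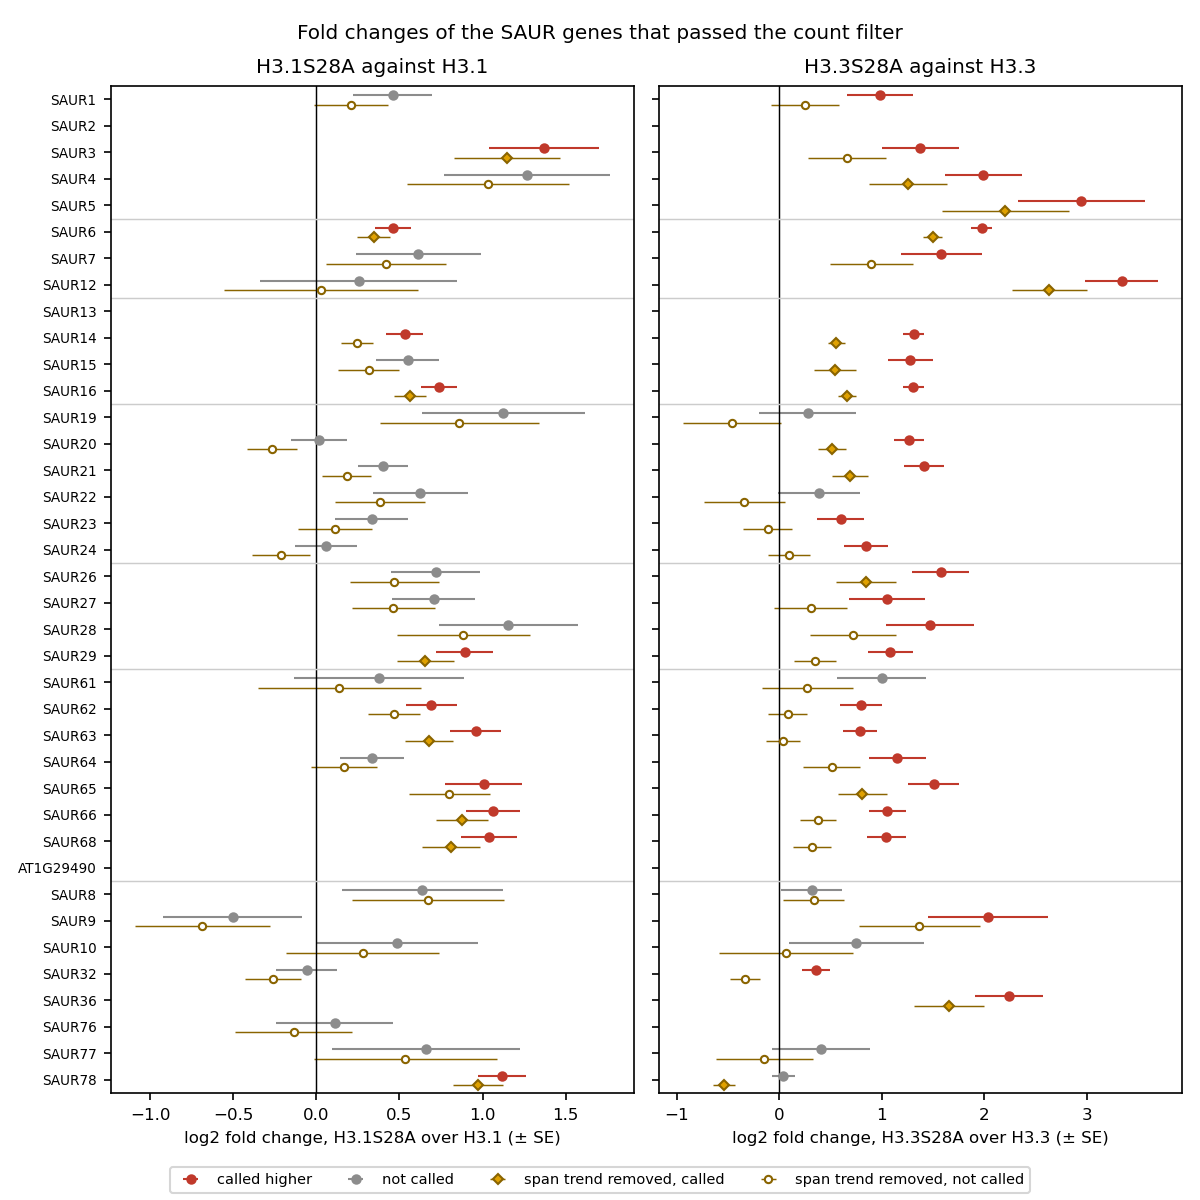
Log2 fold change with standard error of each tested SAUR gene, H3.1S28A over H3.1 on the left and H3.3S28A over H3.3 on the right; upper marks are the test as reported (red called higher, grey not called) and lower marks the same test after the trend with gene span was removed (filled diamonds called, open circles not called). In H3.3S28A, 27 genes were called higher before removal and 12 after it, when SAUR78 lay at -0.54.

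The SAUR genes are short, with a median span of 782.5 bases and a range of 427 to 2588 in RefSeq (introns included), and fold changes followed span over the whole transcriptome. Across genes, which are not independent replicates and share the libraries, Spearman's rho between span and log2 fold change was -0.22 over 18780 genes in H3.1S28A against H3.1 and -0.52 over 19525 genes in H3.3S28A against H3.3. The members were therefore set beside all other tested genes whose span lay within the interquartile range of the members. In H3.1S28A against H3.1, the members' 33.3% called higher and median of 0.62 stood beside 17.5% and 0.24 in 377 such genes, 2.65% of which were called lower. In H3.3S28A against H3.3, the members' 79.4% and median of 1.12 stood beside 54.5% and 0.72 in 565 such genes, with 1.95% called lower. Narrowed to genes with both span and level in the members' interquartile range, the background was 9.93% higher with a median of 0.26 in 151 genes, and 46.8% higher with a median of 0.68 in 156 genes. The level was still not fully matched. The median log2 CPM of these genes was 1.59 and 2.00, against 2.31 and 2.22 in the members, and fewer counts make a call less likely. Other short genes were thus also called higher more often than all genes in both mutants. The members' median lay above that of short genes in both comparisons.

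**Figure D3:**
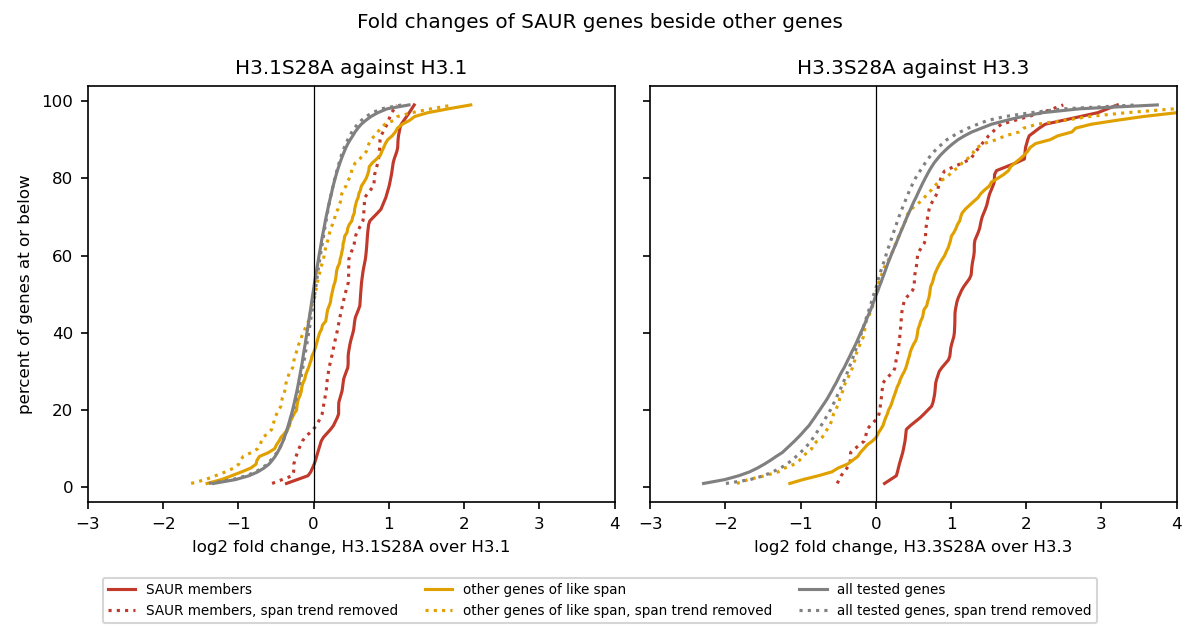
Cumulative distribution of log2 fold changes for the tested SAUR genes (red), other genes of like span (yellow) and all tested genes (grey), H3.1S28A over H3.1 on the left and H3.3S28A over H3.3 on the right; dotted lines are after removal of the span trend. The solid red curves have medians of 0.62 and 1.12, and at the median and both quartiles they lie to the right of the solid yellow curves and these to the right of the grey ones.

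With a smooth trend on span taken out of each library, an alternative chosen after seeing the data, the median of other short genes was 0.02 in H3.1S28A against H3.1 and 0.00 in H3.3S28A against H3.3. The members' median was then 0.42 and 0.45. In H3.1S28A, 8 members, 24.2% of those tested, remained higher (SAUR3, SAUR6, SAUR16, SAUR29, SAUR63, SAUR66, SAUR68 and SAUR78), against 9.02% of short genes and 7.77% of all genes, and 0 were lower. SAUR78 was then at 0.97 (SE 0.15, adjusted p = 0.00382) and SAUR66 at 0.88 (SE 0.16, adjusted p = 0.00734). SAUR14, SAUR62 and SAUR65 lost the call, at adjusted p = 0.125, 0.0822 and 0.0587. In H3.3S28A, 12 members, 35.3% of those tested, remained higher, against 18.9% of short genes and 24.1% of all genes, and 1 was lower, against 19.3% of short genes. The 12 were SAUR4, SAUR5, SAUR6, SAUR12, SAUR14, SAUR15, SAUR16, SAUR20, SAUR21, SAUR26, SAUR36 and SAUR65. Among them, SAUR5 and SAUR12 had passed the filter only through the H3.3S28A libraries. SAUR12 was at 2.63 (SE 0.37, adjusted p = 0.000147), SAUR36 at 1.66 (SE 0.34, adjusted p = 0.00192) and SAUR6 at 1.495 (SE 0.10, adjusted p = 6.56e-07). On the SAUR61 to SAUR68 array only SAUR65 kept its call, and SAUR62 and SAUR63 were at 0.08 and 0.04. SAUR78, at 0.04 before, was called lower at -0.54 (SE 0.11, adjusted p = 0.00145). The genes called higher in both mutants after removal were SAUR6 and SAUR16.

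Before removal, 10 members were called higher in both mutants, which is 90.9% of the 11 called in H3.1S28A and 37% of the 27 called in H3.3S28A. Over all tested genes the shares were 58.8% and 16.2%. The members' overlaps were not far above their own called shares of 79.4% in H3.3S28A and 33.3% in H3.1S28A. For all genes the called shares were 28.8% and 8.23%. No overlap is given for short genes. The comparisons have no library in common. Set against each other in an interaction test over all 8 libraries, 1 of 35 tested members changed more in H3.1S28A and 9 changed more in H3.3S28A. Over all genes 24.4% were called in the direction of H3.1S28A and 14.6% in that of H3.3S28A (39% in either direction), and 21.1% of 554 short genes in that of H3.3S28A. The members' median difference was -0.49, near that of short genes, -0.50, and apart from that of all genes, 0.07. SAUR78 was the gene with the larger change in H3.1S28A, by 1.11 on the log2 scale (SE 0.21, adjusted p = 0.0011). Its libraries stood apart in H3.1S28A against H3.1 and overlapped in H3.3S28A against H3.3. The unmutated libraries also differed, those of H3.1 at 17.6 and 24.99 CPM and those of H3.3 at 30.6 and 32.2 CPM, on scales set separately in the 2 tables. SAUR6 differed the other way, by -1.49 (SE 0.15, adjusted p = 1.03e-05), SAUR12 by -3.06 (SE 0.70, adjusted p = 0.00402) and SAUR20 by -1.22 (SE 0.23, adjusted p = 0.00101). SAUR12 had 1.12 and 0.382 CPM in H3.1S28A against 0.594 and 0.579 CPM in H3.1, with overlap, beside its wide gap in H3.3S28A against H3.3. SAUR9 likewise overlapped in the H3.1 comparison, at 1.19 and 1.10 CPM in H3.1S28A against 2.15 and 1.11 CPM in H3.1, and differed by -2.51 (adjusted p = 0.0166). SAUR14 and SAUR16, called in both comparisons, differed by -0.75 and -0.55. SAUR9 lost its called difference without H3.1 replicate 1, H3.3S28A replicate 1 or H3.3 replicate 2 (adjusted p = 0.101, 0.0640 and 0.0714), and SAUR16 without H3.1S28A replicate 2 or H3.3 replicate 2 (0.0532 and 0.0802). With the span trend removed, the differences of SAUR78, SAUR6, SAUR12 and SAUR20 were still called, and so were those of SAUR5, SAUR9 and SAUR63, the last at 0.67 toward H3.1S28A. The differences of SAUR14 and SAUR16 were not.

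**Figure D4:**
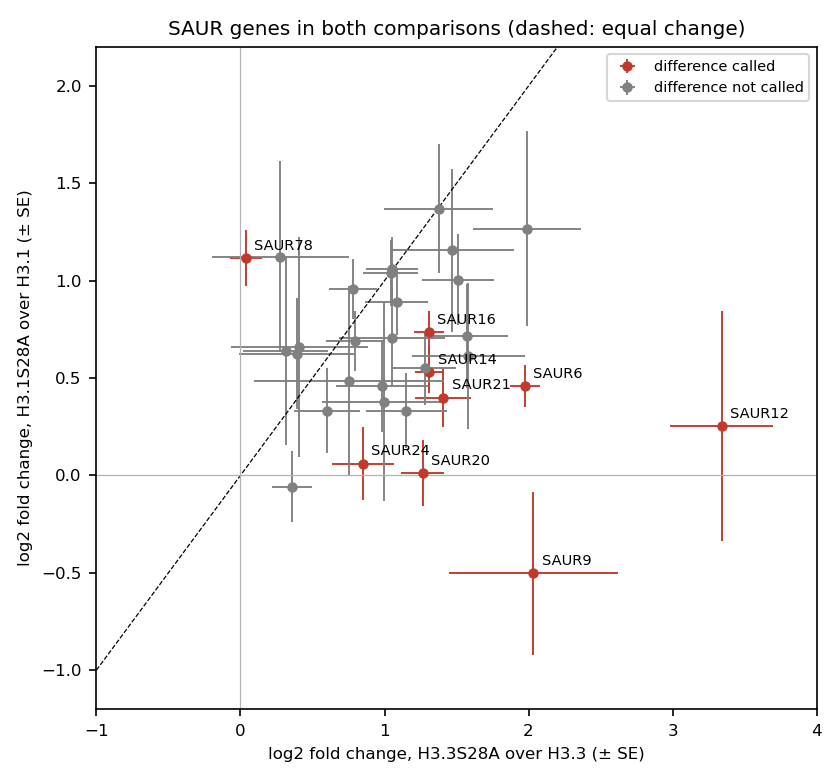
Log2 fold change of the 32 SAUR genes tested in both comparisons, H3.3S28A over H3.3 across and H3.1S28A over H3.1 upward, with standard errors; red points have a called difference between the comparisons and the dashed line marks equal change. SAUR78 lies far above the line at 1.12 upward and 0.04 across, and SAUR6, SAUR9, SAUR12 and SAUR20 lie far below it.

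Summed over each array, all 6 arrays were higher in both mutants in every library, as the plot of array sums shows. The ratios ran from 1.18 for SAUR19 to SAUR24 to 1.77 for SAUR26 to SAUR29 and for SAUR61 to SAUR68 in H3.1S28A over H3.1, and from 1.97 for SAUR61 to SAUR68 to 4.02 for SAUR6 to SAUR12 in H3.3S28A over H3.3. The 8 single loci had the ratios 1.67 and 1.21. Among all tested genes taken singly, both S28A libraries lay above both unmutated ones in 28.7% in H3.1S28A and 38.9% in H3.3S28A. Other genes of like span had median log2 fold changes of 0.24 and 0.72 in these comparisons, and no sums were taken over them. Of the 39 non-SAUR genes that flank or interrupt the loci, 29 were tested in H3.1S28A against H3.1, with 1 called higher, 0 lower and a median of 0.10, beside 8.23% higher and 5.26% lower over all genes. At an unadjusted p under 0.05, 5 were higher and 1 lower, and DESeq2 called 1 higher and 0 lower. In H3.3S28A against H3.3, 31 were tested, with 10 higher, 7 lower and a median of 0.18, beside 28.8% higher and 29.7% lower over all genes. The neighbour called in H3.1S28A was AT2G21195, beside the SAUR6 to SAUR12 array and 766 bases in span, at 1.04, and it was at 0.73 in H3.3S28A.

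**Figure D5:**
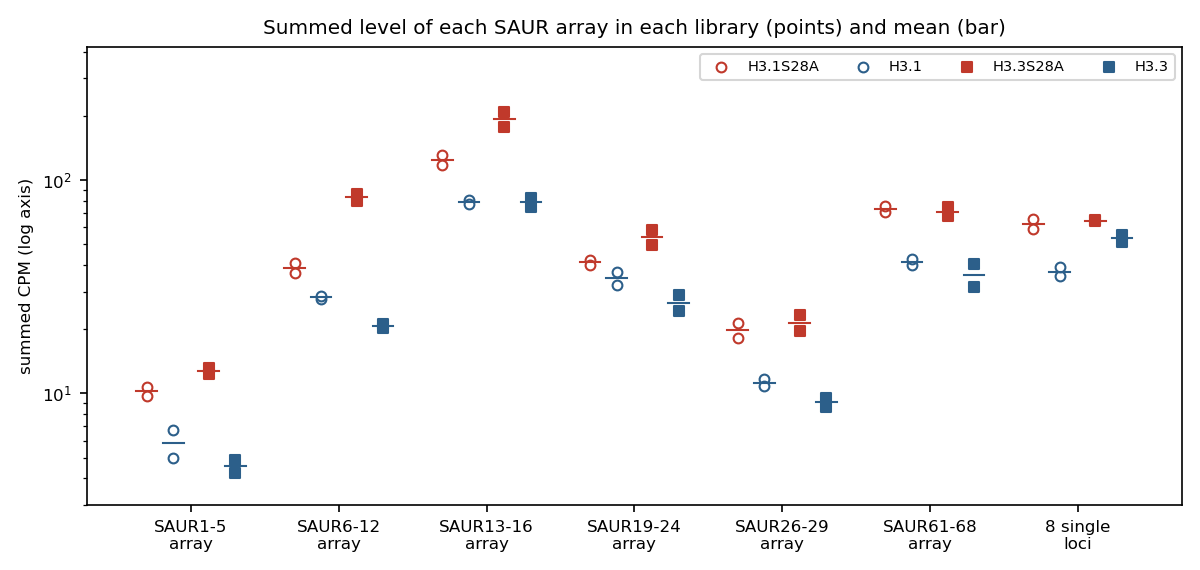
Summed CPM of the SAUR genes of each tandem array and of the 8 single loci on a log axis; each point is a library, short bars are means of 2 libraries, open circles are H3.1S28A (red) and H3.1 (blue) and filled squares H3.3S28A (red) and H3.3 (blue). The SAUR6 to SAUR12 array differs most, at 80.1 and 85.8 CPM in H3.3S28A against 20.2 and 21.1 CPM in H3.3.

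RefSeq gives the name SAUR to 42 other genes in the tables. In H3.1S28A against H3.1, 18 of them were tested, 3 rose and 1 fell, with a median of 0.29, beside 8.23% higher and 5.26% lower over all genes. SAUR59 (AT3G60690) had 8.78 and 7.51 CPM in H3.1S28A against 5.11 and 4.23 CPM in H3.1 (0.80, adjusted p = 0.0175). SAUR31 and SAUR50 were at 0.56 and 0.54. The gene that fell was AT5G01830, at -0.65, which is counted here by its RefSeq name and may not be a SAUR gene. With the span trend removed, 1 was called higher, SAUR59, and 0 lower, with a median of 0.08, and the other 3 genes lost the call (adjusted p = 0.0958, 0.0542 and 0.0616 for SAUR31, SAUR50 and AT5G01830).

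In H3.3S28A against H3.3, 21 of these genes were tested, 14 rose and 0 fell, with a median of 1.08, beside 28.8% higher over all genes. Removal of the span trend left 7 higher and 1 lower, with a median of 0.35. SAUR59 had 31.4 and 30.4 CPM in H3.3S28A against 7.83 and 7.90 CPM in H3.3 (1.99, adjusted p = 3.23e-07). Of the 14, 3 did not reach the count minimum in both H3.3 libraries and so passed the filter only through H3.3S28A. These were SAUR42, SAUR25 and SAUR56, the last with 20 and 18 counts in H3.3S28A against 5 and 2 in H3.3. SAUR42 had 44 and 15 counts in H3.3S28A and none in H3.3, at least 12.1-fold higher by a floor of 3 counts per library, and SAUR25 had 36 and 14 counts against none, at least 10.3-fold higher. Further called genes were SAUR56, SAUR71 and SAUR49, at 2.74, 2.02 and 1.49, and at 2.02, 1.30 and 0.95 with the span trend removed, where they were still called.

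The genes of other pathway steps are longer, with median spans of 1541 to 5346 bases by list, and fold changes fell with span in both comparisons. Their counts stand beside 8.23% higher and 5.26% lower over all genes in H3.1S28A, and 28.8% higher and 29.7% lower in H3.3S28A. Of the 9 tested PP2C.D phosphatases, which SAUR proteins inhibit, 0 were higher and 1 lower in H3.1S28A, AT4G38520 at -0.41. It lost the call with the span trend removed (adjusted p = 0.0593). In H3.3S28A 4 were higher and 3 lower by edgeR, and 1 higher and 2 lower by DESeq2. AT5G02760 was at -1.04, AT3G17090 at -0.81, AT4G33920 at -0.50 and AT5G66080 at 0.54, and the last lost the call with the span trend removed (adjusted p = 0.0516).

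Of the 9 tested H+-ATPase genes, AHA11 and AHA3 rose in H3.1S28A, at 0.45 and 0.40, and 0 fell, also with the span trend removed. In H3.3S28A 0 rose and 5 fell, among them AHA3 at -1.67, AHA8 at -1.46, AHA10 at -1.41 and AHA11 at -1.34. These genes have spans of 4225 to 6002 bases. After removal of the span trend, 4 of the 9 were higher and 3 lower in H3.3S28A. AHA3 was then at -0.77, AHA8 at -0.94 and AHA11 at -0.40, still called, and AHA10 was not called (adjusted p = 0.252).

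Of the 6 tested receptors, 1 rose in H3.1S28A, AFB1 at 0.48, and 2 fell, AFB4 at -0.53 and TIR1 at -0.36. In H3.3S28A 0 rose and 3 fell, AFB4 at -0.56, AFB3 at -0.47 and TIR1 at -0.42. With the span trend removed, 1 was higher and 1 lower in each mutant. TIR1 then lost its call in both (-0.28, adjusted p = 0.0870 in H3.1S28A and -0.083, adjusted p = 0.55 in H3.3S28A), AFB4 lost it in H3.3S28A (adjusted p = 0.0646), and AFB3 kept it at -0.47.

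Of the 5 activating ARF genes, 4 fell in H3.1S28A, ARF5 (MONOPTEROS) at -0.54, ARF6 at -0.50, ARF19 at -0.49 and ARF7 at -0.48. All 5 were lower there at an unadjusted p under 0.05 by edgeR. With the span trend removed, ARF5 and ARF19 missed the threshold (adjusted p = 0.0589 and 0.0686). In H3.3S28A 3 fell, ARF5 at -2.21, ARF19 at -1.76 and ARF7 at -1.46. Removing the span trend left them called at the smaller changes of -1.55, -0.94 and -0.58, and the other 2 ARF genes were called higher.

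Aux/IAA repressors, themselves early auxin targets, had 7 of 11 higher and 0 lower in H3.1S28A, with IAA19 at 0.75, IAA3 at 0.70, IAA2 at 0.62 and IAA4 at 0.55. At an unadjusted p under 0.05 by edgeR, 7 were higher and 2 lower. After removal of the span trend 7 were higher and 1 lower, and DESeq2 called 5 higher. In H3.3S28A 4 were higher and 2 lower of 10, including IAA7 at 1.10, IAA14 at 0.96, IAA29 at -1.13 and IAA2 at -0.65. After removal 3 were higher and 3 lower, and IAA2 was at -1.11 and IAA29 at -1.53. The GH3 genes, auxin-inducible enzymes that conjugate auxin to amino acids, had 1 of 5 called lower in H3.1S28A, GH3.6 at -0.49. At an unadjusted p under 0.05 by edgeR, all 5 were lower there, with a median of -0.49. In H3.3S28A 5 of 5 were lower, among them GH3.5 at -1.59, BRU6 (AT4G37390) at -1.52, GH3.17 at -1.50 and GH3.6 at -1.15. The numbers of called GH3 genes were the same with the span trend removed.

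Of the auxin synthesis genes, 0 of 6 tested were called in H3.1S28A by edgeR or DESeq2, with 0 at an unadjusted p under 0.05. In H3.3S28A 1 of 7 rose, TAR2 at 0.53, and 2 with the span trend removed, when TAR2 was at 0.94. Auxin transport genes had 0 of 11 called in H3.1S28A by either tool, with 1 higher and 1 lower at an unadjusted p under 0.05, and 1 higher with the span trend removed. In H3.3S28A 5 rose and 4 fell, among them the exporters ABCB1 at -1.62, ABCB19 at -1.42 and PIN2 at 1.35 and the importer AUX1 at 0.95. PIN2 is also 1 of the 5 root markers above, and had 80 and 27 counts in H3.3S28A against 38 and 12 in H3.3. After removal 7 rose and 3 fell, and the named genes, still called, were at -0.72, -0.23, 1.99 and 1.49.

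Among 10 tested growth regulators that act upstream of SAUR genes, HFR1, an inhibitor of PIF factors, rose in both mutants, at 1.72 in H3.1S28A and 2.02 in H3.3S28A. PRE6 was lower in H3.1S28A, at -0.58. In H3.3S28A 3 rose and 4 fell, with PRE1 at 1.32, PIF5 at -1.10 and PIF7 at -1.05. After removal 2 rose and 4 fell, and PRE1 was at 0.74.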

How the data were processed

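Raw counts per gene were deposited by the authors in 2 tables, one for H3.1S28A and H3.1 and one for H3.3S28A and H3.3. The submitters' processing notes name HISAT2, Subread and DESeq2 and the genome build TAIR10. No source used here gives their versions, whether counting used strand, or how multiply mapped reads were handled. The 30 chromatin libraries were not used here.

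Each S28A genotype was tested against its unmutated form by the quasi-likelihood test of edgeR 4.0.16 (R 4.3.3), with TMM scaling and filterByExpr on the groups, and p-values adjusted by Benjamini-Hochberg over all tested genes to a threshold of 0.05, and the difference between the comparisons by an interaction contrast over all 8 libraries. The SE was taken as |log2 fold change| divided by sqrt(F). CPM of SAUR and pathway genes are TMM-scaled within a table, and sums over markers are scaled to library totals. The filter asked for about 10 counts at the median depth in 2 libraries.

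The members and gene lists were chosen with earlier results of these data known. Values per library are given for called members, up to 14 per comparison by absolute change, and for the gene with the highest CPM of each array, and SAUR15 was added after its values were seen. Called list genes are named up to 4 per list and other SAUR genes up to 6. RefSeq (TAIR10.1) held 26719 of the 27416 genes. Gene span from it replaced coding length, as protein, promoter and genome sequences were not used here. Same-numbered libraries did not deviate together (r = -0.017 and 0.022), so replicate numbers were not taken as pairs. Alternatives were RLE size factors, DESeq2 1.42.0, no filter, all 8 libraries in 1 fit, a replicate block, removal of organelle genes, removal of the span trend and leaving out each library.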

Additional observations from a re-analysis of the deposited data

Results flagged for a closer look

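For 10 of 35 tested SAUR genes the change in H3.1S28A over H3.1 differed from the change in H3.3S28A over H3.3 (interaction test of edgeR). Over all 20052 tested genes, 39% were called in either direction and 14.6% toward a larger change in H3.3S28A. Of 554 short genes, 21.1% were called toward H3.3S28A. Differences are given here as the H3.1S28A change minus the H3.3S28A change on the log2 scale. SAUR78 differed by 1.11. The other 9 differed toward a larger change in H3.3S28A, SAUR5 by -3.98, SAUR12 by -3.06, SAUR9 by -2.51, SAUR6 by -1.49, SAUR20 by -1.22, SAUR21 by -0.98, SAUR24 by -0.76, SAUR14 by -0.75 and SAUR16 by -0.55. SAUR5 rests on 4 counts in H3.1S28A and 10 in H3.1. A replicate block, which the pairing check does not back, took the call from SAUR24 (adjusted p = 0.0716), as did DESeq2 (0.0972). With 1 library left out, SAUR24 was lost without any of H3.1S28A replicates 1 or 2, H3.1 replicates 1 or 2, H3.3S28A replicate 2 or H3.3 replicate 2 (adjusted p up to 0.166). SAUR5 was lost without H3.1 replicate 2 (0.135) or H3.3 replicate 2 (0.0502), and SAUR16 without H3.1S28A replicate 2 (0.0532) or H3.3 replicate 2 (0.0802). SAUR9 was lost without H3.1 replicate 1 (0.101), H3.3S28A replicate 1 (0.0640) or H3.3 replicate 2 (0.0714). The other 6 kept the call in every such fit. With the span trend removed, SAUR14, SAUR16, SAUR21 and SAUR24 were no longer called, at -0.29, -0.06, -0.47 and -0.28.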

How the results depend on the processing

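RLE size factors, no count filter and removal of organelle genes changed no call of a SAUR gene. Without each library in turn, members called higher numbered 8 to 13 in H3.1S28A and 21 to 26 in H3.3S28A, with medians of 0.49 to 0.72 and 1.09 to 1.18, and 6 to 11 differed between the comparisons, 6 of them without H3.3 replicate 2. Of the called genes, 6 of 11, 17 of 27 and 6 of 10 kept the call in every such fit. Over all genes, 777 to 1966 were then higher and 375 to 1514 lower in H3.1S28A, and DESeq2 called 582 lower against 998. Removing the span trend gave medians of 0.42 and 0.45 and, in H3.3S28A, 12 members higher and 1 lower. It also reversed SAUR20 (-0.27), SAUR24 (-0.21) and SAUR76 (-0.14) in H3.1S28A and SAUR19 (-0.46), SAUR22 (-0.34), SAUR23 (-0.11), SAUR32 (-0.33), SAUR77 (-0.15) and SAUR78 (-0.54) in H3.3S28A. Leaving out a library in turn gave uncalled values of either sign in H3.1S28A against H3.1 for SAUR9 (-0.90 to 0.043), SAUR12 (-0.61 to 0.94), SAUR20 (-0.17 to 0.20), SAUR24 (-0.068 to 0.20), SAUR32 (-0.26 to 0.15), SAUR61 (-0.11 to 1.12) and SAUR76 (-0.31 to 0.38), and in H3.3S28A against H3.3 for SAUR19 (-0.20 to 0.91), SAUR22 (-0.12 to 1.10) and SAUR78 (-0.081 to 0.15). The replicate block left the counts at 11 and 27 members higher and gave 9 in place of 10 differences. A trend on coding length was not run, as protein sequences were not used here. The cause of these shifts was not tested. Members under about 1 CPM rest on few counts, and depth limits what can be called in them.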
